A study of Rattus norvegicus with 6 samples.

Results

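The Sm, LSm and SF3 genes were examined in brain RNA of rats. The rats carried the plasmid pcDNA3.1/LINC00894 (LINC00894, n = 3 libraries) or the plasmid pcDNA3.1 without that insert (vector, n = 3 libraries). LINC00894 is a human long intergenic non-coding RNA. The set was chosen by symbol: rows of the gene table named Lsm followed by a digit, Snrp, Sf3a or Sf3b. It held 36 of 32623 rows, with 35 distinct symbols, since Lsm5 had 2 rows. The labels gave the tissue as brain and gave no region, age, sex or ischaemic state of the animals, no cell type or promoter driving the insert, and no statement that each library came from its own animal. The p-values below thus reflect how far these libraries vary, and part of that variation may be technical.

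As background, Sm proteins form a ring on the U1, U2, U4 and U5 small nuclear RNAs, and the related LSm2 to LSm8 proteins form one on U6. LSm1 takes the place of LSm8 in a cytoplasmic ring that promotes decapping and decay of mRNA, and LSm10 and LSm11 replace SmD1 and SmD2 in the U7 particle, which trims histone pre-mRNA. SF3A and SF3B are complexes of the U2 particle, and SF3B grips the branch site of the intron. Every cell that splices needs the Sm proteins, LSm2 to LSm8, SF3A and SF3B, and neurons add SmN, encoded by the imprinted gene Snrpn, as a relative of SmB.

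Summed counts per library were 12843875 to 13328801 in LINC00894 and 13384733 to 16268464 in vector, and the set took 0.161% to 0.180% of counts in LINC00894 and 0.148% to 0.162% in vector. Brain markers matched the tissue label: the 7 neuronal markers summed to 1532 to 2178 FPKM (fragments scaled to exonic length and library size) in LINC00894 and 1981 to 2199 FPKM in vector, and 3 hepatocyte markers to at most 4.63 FPKM. Markers of oligodendrocytes (5) summed to 1416 to 2428 FPKM in LINC00894 and 1399 to 3142 FPKM in vector, of astrocytes (5) to 1020 to 1207 FPKM in LINC00894 and 748 to 1190 FPKM in vector, and of microglia (5) to 52.8 to 61.6 FPKM in LINC00894 and 48.6 to 50.9 FPKM in vector. Markers within a sum did not move together. In vector replicate 3 the astrocyte marker Gfap was the lowest of all libraries (156 FPKM) and Slc1a2 the highest (312 FPKM). Of the microglial markers, Aif1 was at 7.82, 8.83 and 12.9 FPKM in LINC00894, against 5.03, 5.88 and 4.77 FPKM in vector. Tmem119 was at 1.8, 4.06 and 4.74 FPKM in LINC00894, against 5.31, 3.8 and 6.77 FPKM in vector. Markers of endothelium (4, Cldn5 at 0 in each library) summed to 31.3 to 66.2 FPKM in LINC00894 and 23.5 to 39.1 FPKM in vector, of neutrophils (4, Mpo and Elane at most 0.11 FPKM) to 9.55 to 86.4 FPKM in LINC00894 and 7.5 to 33.6 FPKM in vector, and of choroid plexus (4) to 1.06 to 4.87 FPKM in LINC00894 and 3.91 to 10.2 FPKM in vector. Their part in the results below was not tested; in bulk tissue, fewer cells of a type and less RNA per cell cannot be told apart. The Y-linked Kdm5d and Eif2s3y had 0 counts in LINC00894 replicates 1 and 2, against 491 and 1394 in LINC00894 replicate 3 and 501 to 930 and 997 to 1238 in vector. One further property separated libraries: the change of log2 CPM (counts scaled to library size) with each doubling of exonic length was -0.10 in LINC00894 replicate 3 and 0.062 in vector replicate 3, and between -0.00047 and 0.017 in the other libraries.

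Of the 36 rows, 33 passed the filter on low counts and were tested. None of the 33 differed between LINC00894 and vector by edgeR's quasi-likelihood test (threshold 0.05 on p after Benjamini-Hochberg adjustment over all genes), as was so for all 15121 genes tested (0 called, 0%); DESeq2 called 11 genes, none of them in this set. At an unadjusted p under 0.05 stood 2 members, Lsm10 and Lsm6, 6.06% of the set against 4.03% of all genes; both were higher in LINC00894, as were 1.82% of all genes at that p. The sign was uneven: 29 members had a positive log2 fold change of LINC00894 over vector and 4 a negative one, where 51.8% of all genes tested were positive. The median log2 fold change was 0.14 in the set and 0.012 over all genes. For 4 members (12.1%), Lsm10, Lsm6, Snrpd3 and Sf3a3, the LINC00894 libraries all lay above the vector libraries, against 4.98% of all genes, and for 0 members below them, against 3.88%. Groups without overlap in either direction made up 8.86% of all genes.

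**Figure D1:**
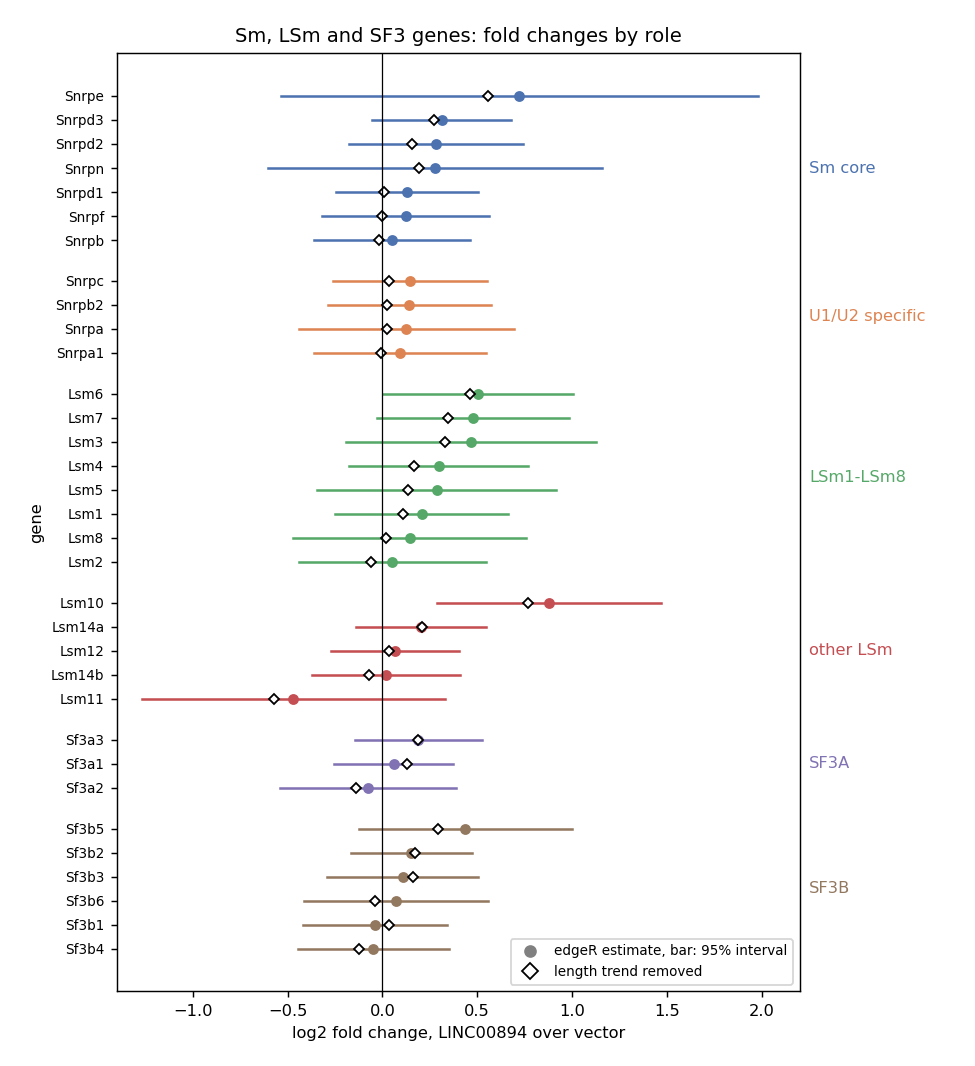
Log2 fold change of LINC00894 over vector for the 33 tested genes, grouped by role; circles are edgeR estimates with 95% intervals, diamonds the estimates with each library's length trend removed. Lsm10 and Lsm6 have intervals above 0, and Lsm11 lies farthest below 0 at -0.47.

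The shift was not shared by all libraries of a group. Relative to each gene's mean over the 6 libraries, the set's median log2 CPM was 0.16, -0.081 and 0.20 in LINC00894 replicates 1, 2 and 3 and -0.066, 0.0094 and -0.16 in vector replicates 1, 2 and 3. The LINC00894 replicate 2 value was lower than those of vector replicates 1 and 2. LINC00894 replicate 3 held the highest value of 20 members and vector replicate 3 the lowest of 14. The matching shares over all genes were not computed. These are the libraries with the steepest length trends, and the part of those trends in the extremes was not tested. With each library's length trend removed, the set's median was highest in LINC00894 replicate 3 (0.14) and lowest in vector replicate 3 (-0.12). Without LINC00894 replicate 3 the set's median log2 fold change was 0.062 with 25 of 33 positive. All genes had a median of -0.0016 in that fit, with 49.7% positive. Without vector replicate 3 the set's median was 0.10 with 22 positive, against 0.019 with 53.1% positive over all genes. Without vector replicate 2 it was 0.22 with 28 positive, against 0.010 with 51.4% positive. Among the 4 libraries with Y-linked counts, 1 of them from LINC00894, the set's median was 0.27 with 29 positive. All genes had a median of -0.011 there, with 49.1% positive. The libraries without such counts are from LINC00894 alone and give no comparison.

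**Figure D2:**
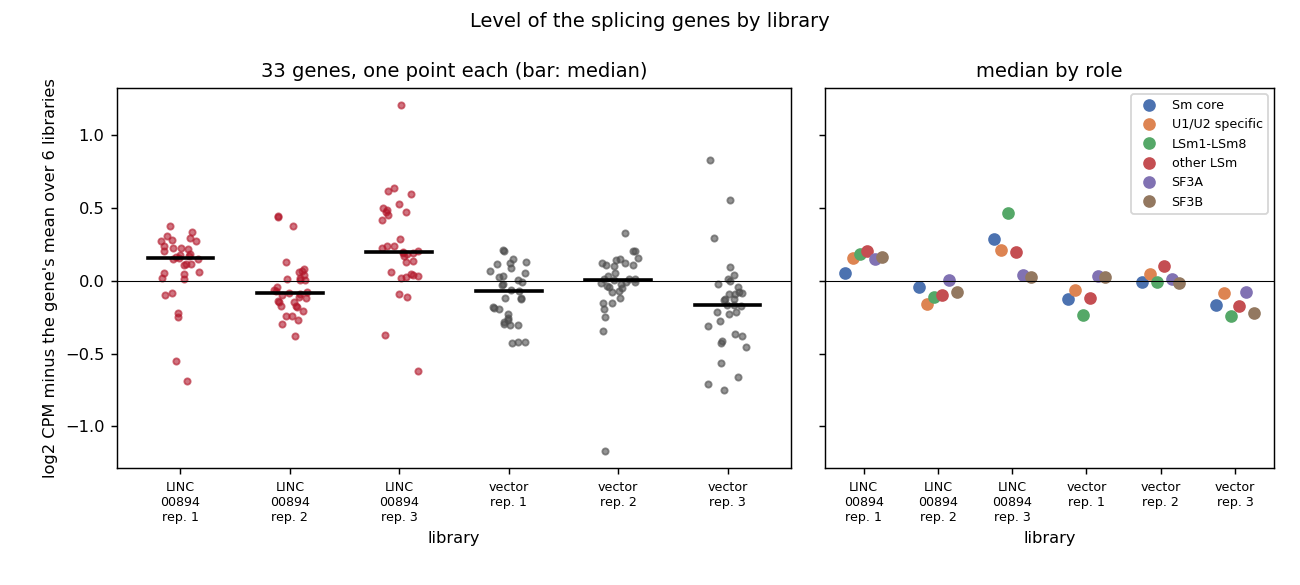
Log2 CPM minus the gene's mean over the 6 libraries for the 33 tested genes (left, bars are medians) and the median of each role group (right), LINC00894 libraries before vector libraries. The set's median is highest in LINC00894 replicate 3 (0.20) and lowest in vector replicate 3 (-0.16), and LINC00894 replicate 2 (-0.081) lies among the vector libraries.

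Gene length was the control named for this set. The tested members are short, with a median exonic length of 1145 bases against 2367 bases for all genes tested, and short genes as a class had positive log2 fold changes in these libraries. In the shortest of 5 equal bins of exonic length (49 to 1345 bases), 66.5% of all genes were positive with a median of 0.12; the 20 members in that bin had 19 positive and a median of 0.15. In the next bin (1345 to 1997 bases) 61.7% of all genes were positive with a median of 0.069. Its 4 members stood lower, with 2 positive and a median of 0.0019. Between 1997 and 2779 bases 53.9% of all genes were positive with a median of 0.021. The 4 members there had 4 positive and a median of 0.25. Between 2779 and 4039 bases 45.2% of all genes were positive with a median of -0.028. The 2 members there had 2 positive and a median of 0.18. In the longest bin (4039 to 29464 bases) 31.8% of all genes were positive with a median of -0.091, while its 3 members, Sf3a1, Sf3b1 and Sf3b3, had a median of 0.060. Over all bins 25 of 33 members lay above the median of their bin. Across the 33 members Spearman's rho of log2 fold change with exonic length was -0.40, and across all genes tested -0.26; genes of the same libraries share these libraries' trends and are not independent.

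With the length trend of each library removed by an offset in the edgeR fit, 24 members were positive and 9 negative, where 49.7% of all genes were positive, and the set's median was 0.11 against -0.0014 over all genes. With its sign, the estimate was lower for 28 members and higher for 5, by at most 0.16 and 0.075 log2 units. The negative estimates of Lsm11, Sf3a2 and Sf3b4 thus moved farther from 0, to -0.57, -0.14 and -0.12. Spearman's rho with length was -0.062. Of the members, 6 turned from positive to negative and 1, Sf3b1, from negative to positive. By this fit 0 members passed the adjusted p, as did 0 of all genes (0%), and 1 member, Lsm10, had an unadjusted p under 0.05, against 3.92% of all genes.

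**Figure D3:**
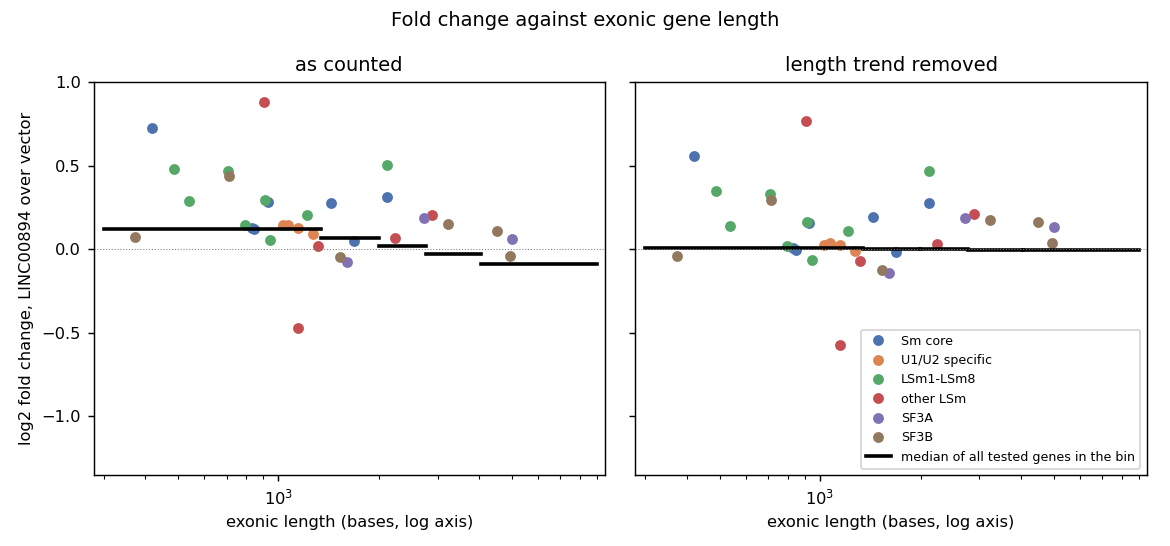
Log2 fold change against exonic length (log axis) for the 33 tested genes, coloured by role, before (left) and after (right) removal of each library's length trend; black lines are medians of all tested genes in 5 equal bins of length, drawn within the plotted range of lengths. The bin medians run from 0.12 for the shortest to -0.091 for the longest genes on the left and lie within 0.0075 of 0 on the right.

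The Sm core proteins, which build the ring on most small nuclear RNAs, were 7 of 8 tested, and all 7 had a positive log2 fold change, median 0.28 (0.16 with the length trend removed). The median of 0.28 is the value of the Snrpn row, and the 7 include the Snrpe row. Both rows are uncertain for the reasons given below. Snrpd3 (SmD3, ENSRNOG00000050410) had levels of 18.8, 16.1 and 20.1 FPKM in the LINC00894 libraries, in replicate order, against 13.6, 15.4 and 13.2 FPKM in vector. The groups did not overlap, although LINC00894 replicate 2 and vector replicate 2 came within 1 FPKM of each other. Its log2 fold change was 0.31 (SE 0.16, adjusted p = 0.981 by edgeR), and the two-sided exact permutation test of FPKM gave p = 0.1, the smallest value that 3 against 3 libraries allow. In what follows, a value given in brackets with an SE is the edgeR log2 fold change of LINC00894 over vector, and ± marks the SD over 3 libraries. FPKM lacks the TMM scaling between libraries that the edgeR fit uses. By limma on log2(FPKM + 1), 61.8% of all genes were positive, against 51.8% by edgeR. Group means and permutation tests of FPKM therefore lean toward LINC00894 relative to the edgeR estimates. Snrpd1 (SmD1), the Sm gene with the highest level, stood at 45.1, 39.0 and 45.0 FPKM in LINC00894, against 33.1, 42.9 and 36.7 FPKM in vector, with overlapping groups (0.13, SE 0.17). Snrpd2, the partner of SmD1, averaged 39.7 ± 8.87 FPKM in LINC00894 and 31.1 ± 4.4 FPKM in vector (SD, n = 3 each; 0.28, SE 0.20), with the highest value, 49.7 FPKM, in LINC00894 replicate 3. Snrpf (SmF) ranged from 15.5 to 20.4 FPKM in LINC00894 and from 14.5 to 16.9 FPKM in vector (0.12, SE 0.20).

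The median of this group rested on few libraries and rows. It was 0.070 without LINC00894 replicate 3 and 0.11 without vector replicate 3. With a minimum count of 50, which leaves the Snrpe and Snrpn rows out, it was 0.12.

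Snrpb encodes SmB, and Snrpn its neuronal relative SmN. Snrpb stood at 29.1, 19.7 and 24.2 FPKM in LINC00894, against 20.5, 25.6 and 21.0 FPKM in vector, with both extremes in LINC00894 libraries (0.051, SE 0.18). The row named Snrpn was the lowest tested member, at 1.32, 2.91 and 3.17 FPKM in LINC00894, against 2.28, 2.09 and 1.5 FPKM in vector (0.28, SE 0.39). Its estimate ran from 0.046 without LINC00894 replicate 3 to 0.58 without LINC00894 replicate 1. This low level concerns the row and not the locus. Snurf, whose reading frame lies upstream of Snrpn on the same bicistronic transcript, has a row of its own on the same strand of chromosome 1 (195074330 to 195096694 in the coordinates of the table, for which no source at hand names a build) that spans the Snrpn row (195074330 to 195096460). It took 97.2% to 98.5% of the counts of both rows together, with 60.6, 102.1 and 108.2 FPKM in LINC00894, against 83.7, 80.2 and 96.8 FPKM in vector (-0.010, SE 0.22). How reads are split between these rows is uncertain, and the level of SmN mRNA cannot be read from the Snrpn row alone.

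The rows named Snrpe (SmE) and Snrpg (SmG) need the same care. Of the 36 rows, 4 had an exonic length equal to their genomic span and so no intron: Snrpe, Snrpg, Snrpd2l and Sf3b5. The Snrpe row lies on chromosome 8, where RefSeq (GRCr8, used for names and chromosomes) lists a pseudogene, Snrpel1, with Snrpe as its older name, and places the coding Snrpe on chromosome 13. RefSeq places the coding Snrpg on chromosome 4, while the table's Snrpg row lies on chromosome 1. The Snrpe row had 23, 43 and 83 counts in LINC00894, against 24, 17 and 58 counts in vector, a spread of several fold within each group (0.72, SE 0.56). The Snrpg row had 4, 7 and 5 counts in LINC00894, against 1, 3 and 4 counts in vector, and failed the filter.

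Rows outside the set with the same KEGG orthology number carried more of these counts. LOC687679, described in the table as similar to SmG and lying on chromosome 4, had 267, 165 and 338 counts in LINC00894, against 203, 257 and 164 counts in vector, with overlapping groups (log2 fold change 0.43, SE 0.28). LOC498231 on chromosome 13, with the number of SmE, had 138, 85 and 123 counts in LINC00894, against 114, 136 and 107 counts in vector (0.087, SE 0.25). A further row with that number, on chromosome 3, had 51, 63 and 67 counts in LINC00894, against 65, 90 and 74 in vector (-0.19, SE 0.26). On chromosome 17 a row with the number of Snrpn had 79, 112 and 161 counts in LINC00894, against 104, 156 and 110 in vector (0.076, SE 0.29). LOC100362965, also there and with that number, had 29, 37 and 39 counts in LINC00894, against 40, 43 and 41 in vector (-0.10, SE 0.31). In all, 22 rows outside the set shared such a number with a member, 13 of them with at most 5 counts over the 6 libraries, and 42 RefSeq entries are named as pseudogene copies of genes of these families. The counts of the short Sm and LSm genes are therefore uncertain where reads fit more than one copy. Of the other untested rows, Snrpd2l, a pseudogene in RefSeq, had 4, 2 and 2 counts in LINC00894, against 3, 1 and 0 in vector, and the second Lsm5 row on chromosome 6 had 1 count in all.

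The proteins that complete the U1 and U2 particles all had small positive log2 fold changes, from 0.093 to 0.15. Snrpc (U1-C), which helps U1 bind the 5′ splice site, stood at 23.8, 18.7 and 24.1 FPKM in LINC00894, against 20.2, 18.8 and 18.3 FPKM in vector (0.15, SE 0.18). Only LINC00894 replicate 2 lay among the vector libraries. Snrpa1 (U2-A′) stood at 27.6, 20.2 and 28.8 FPKM in LINC00894, against 18.7, 27.4 and 22.4 FPKM in vector, with overlap (0.093, SE 0.20). Snrpa (U1-A) averaged 17.7 ± 2.85 FPKM in LINC00894 and 15.5 ± 4.88 FPKM in vector, and Snrpb2 (U2-B″) 20.6 ± 3.03 FPKM in LINC00894 and 17.8 ± 1.74 FPKM in vector (SD, n = 3 each). The median of these 4 genes was 0.13, or 0.024 with the length trend removed, and it ran from 0.042 to 0.22 with 1 library left out, the lowest without LINC00894 replicate 3 and the highest without LINC00894 replicate 2. Snrpa turned to -0.10 without vector replicate 3, and Snrpa1 to -0.038 without vector replicate 1 and -0.021 without LINC00894 replicate 3.

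The LSm1 to LSm8 genes had a median log2 fold change of 0.29, with 8 of 8 positive; it was 0.15 with the length trend removed, with 7 of 8 positive, and 0.15 without LINC00894 replicate 3. Lsm6 (ENSRNOG00000049370), a subunit of both the U6 ring and the decapping ring, stood at 5.09, 4.59 and 6.37 FPKM in LINC00894, against 3.42, 3.89 and 3.48 FPKM in vector. The groups did not overlap, and the difference of the means, 5.35 ± 0.918 FPKM in LINC00894 against 3.60 ± 0.256 FPKM in vector (SD, n = 3 each), exceeded the SD of either. Its log2 fold change was 0.50 (SE 0.22, unadjusted p = 0.0484, adjusted p = 0.981 by edgeR; exact permutation p = 0.1), and it was 0.34 without LINC00894 replicate 3; the unadjusted p stayed under 0.05 in 4 of 15 alternative settings. A separate row, LOC100360750, with the KEGG orthology number of Lsm6, had 19, 21 and 21 counts in LINC00894, against 12, 13 and 12 counts in vector, also without overlap (0.85, SE 0.38); reads may be shared between these copies.

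Lsm7, with the highest level of the group, stood at 45.7, 38.0 and 54.1 FPKM in LINC00894, against 27.1, 40.2 and 27.2 FPKM in vector. Vector replicate 2 lay above LINC00894 replicate 2, and the log2 fold change was 0.48 (SE 0.23, unadjusted p = 0.0617 by edgeR). Lsm3 averaged 21.3 ± 6.02 FPKM in LINC00894 and 14.7 ± 4.3 FPKM in vector (0.47, SE 0.29), Lsm4 34.1 ± 7.19 FPKM in LINC00894 and 26.4 ± 4.4 FPKM in vector (0.30, SE 0.21), and Lsm5 19.6 ± 6.7 FPKM in LINC00894 and 15.3 ± 2.66 FPKM in vector (0.29, SE 0.28). Each of these had its highest value in LINC00894 replicate 3, and without that library the estimate for Lsm5 was -0.045 and that for Lsm3 0.24. Without vector replicate 3 Lsm3 was at 0.23. Lsm2 differed least, at 11.5 ± 1.49 FPKM in LINC00894 and 10.6 ± 1.27 FPKM in vector (0.053, SE 0.22). Lsm1, which marks the cytoplasmic decay ring, averaged 10.6 ± 1.35 FPKM in LINC00894 and 8.73 ± 0.62 FPKM in vector (0.21, SE 0.20), and Lsm8, which marks the nuclear U6 ring, 35.2 ± 8.61 FPKM in LINC00894 and 30.5 ± 9.57 FPKM in vector (0.14, SE 0.27). Lsm8 was at -0.083 without LINC00894 replicate 3 and -0.11 without vector replicate 3.

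Lsm10 and Lsm11, partners in the U7 particle, had log2 fold changes of opposite sign. Lsm10 (ENSRNOG00000025716) stood at 7.34, 7.48 and 7.78 FPKM in LINC00894, against 4.37, 4.21 and 3.16 FPKM in vector. Every LINC00894 library lay well above every vector library, on 87, 87 and 94 counts in LINC00894, against 53, 62 and 45 counts in vector. The fold change was 1.84 (95% interval 1.22 to 2.77; log2 0.88, SE 0.26), with an unadjusted p of 0.00799 and an adjusted p of 0.981 by edgeR, and an exact permutation p of 0.1 on FPKM. The log2 fold change was 0.77 with the length trend removed and 0.73 to 0.96 with any 1 library left out. Lsm11 stood at 9.89, 5.78 and 4.98 FPKM in LINC00894, against 5.88, 8.27 and 13.1 FPKM in vector. The groups overlapped, with LINC00894 replicate 1 the second highest of the 6 (-0.47, SE 0.36), and the estimate moved to -0.13 when vector replicate 3 was left out and to -0.81 when LINC00894 replicate 1 was. The Lsm10 to Lsm11 ratio of FPKM was 0.742, 1.29 and 1.56 in LINC00894, against 0.743, 0.509 and 0.242 in vector, with LINC00894 replicate 1 just below vector replicate 1.

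The remaining LSm proteins are not ring components of U6 or U7. Lsm14a and Lsm14b, which act in P-bodies, stood at 36.8 ± 5.05 FPKM in LINC00894 and 30.4 ± 2.22 FPKM in vector (0.20, SE 0.15) and at 48.5 ± 7.32 FPKM in LINC00894 and 45.6 ± 6.0 FPKM in vector (0.021, SE 0.17). By library Lsm14b, the highest of the LSm genes, had 40.8, 49.0 and 55.5 FPKM in LINC00894, against 47.4, 50.6 and 39.0 FPKM in vector, and the groups overlapped. Lsm12 averaged 37.6 ± 3.96 FPKM in LINC00894 and 34.3 ± 3.49 FPKM in vector (0.064, SE 0.15).

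**Figure D4:**
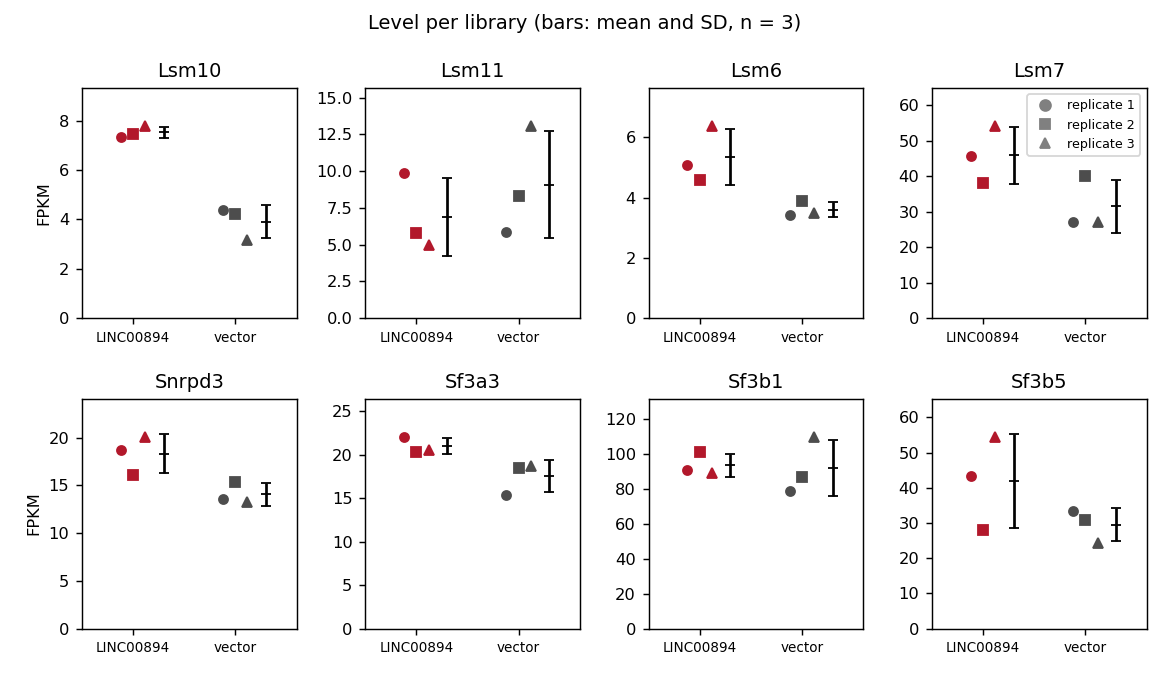
FPKM in each library for 8 genes of the set, LINC00894 left of vector; symbols mark the replicates and bars the mean and SD (n = 3). Lsm10, Lsm6, Snrpd3 and Sf3a3 show groups that do not overlap, while Lsm11, Lsm7, Sf3b1 and Sf3b5 overlap.

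SF3A, which joins SF3B to the U2 particle, had a median log2 fold change of 0.060 over its 3 subunits, 0.13 with the length trend removed and -0.023 without vector replicate 3. Sf3a3 (ENSRNOG00000007629) stood at 22.0, 20.3 and 20.5 FPKM in LINC00894, against 15.4, 18.5 and 18.7 FPKM in vector. The groups did not overlap, and the log2 fold change was 0.19 (SE 0.15, adjusted p = 0.981 by edgeR; exact permutation p = 0.1). It was 0.19 with the length trend removed. Sf3a1 averaged 19.1 ± 0.639 FPKM in LINC00894 and 17.5 ± 1.49 FPKM in vector (0.060, SE 0.14). Sf3a2 stood at 23.4, 17.6 and 14.6 FPKM in LINC00894, against 20.6, 18.4 and 16.9 FPKM in vector (-0.075, SE 0.21); the LINC00894 libraries enclosed the vector libraries.

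SF3B contains the most abundant member and the widest range of lengths, 372 to 4954 bases. Sf3b1, the subunit that contacts the branch site, stood at 90.7, 101.3 and 89.2 FPKM in LINC00894, against 78.9, 86.8 and 109.9 FPKM in vector, with both extremes in vector (-0.038, SE 0.17). Sf3b2 followed at 62.9 ± 6.82 FPKM in LINC00894 and 53.9 ± 2.37 FPKM in vector (0.15, SE 0.14). Sf3b5, a small subunit encoded without introns, stood at 43.3, 28.1 and 54.5 FPKM in LINC00894, against 33.5, 30.8 and 24.3 FPKM in vector. LINC00894 replicate 2 lay below vector replicates 1 and 2 (0.44, SE 0.25, unadjusted p = 0.114 by edgeR), and the estimate was 0.18 without LINC00894 replicate 3 and 0.29 with the length trend removed. Sf3b3, Sf3b6 and Sf3b4 had log2 fold changes of 0.11, 0.071 and -0.048, each within 1 SE of 0. The 6 subunits had a median of 0.089, or 0.098 with the length trend removed, and it ran from 0.021 without vector replicate 3 to 0.15 without vector replicate 1.

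By level per exonic length, the mean over the 6 libraries ran from 2.21 FPKM for Snrpn to 92.8 FPKM for Sf3b1, with a median of 20.6 FPKM among tested members. Sf3b1 stood above Sf3b2 (58.4 FPKM) in each library. Lsm14b (47.0 FPKM), Snrpd1 (40.3), Lsm7 (38.7) and Lsm12 (36.0 FPKM) followed and overlapped in their ranges. At the low end came Lsm1 (9.65), Lsm11 (7.97), the Snrpe row (7.12), Lsm10 (5.72) and Lsm6 (4.47 FPKM). Subunits of the same ring differed in FPKM, Lsm7 standing at 38.7 and Lsm6 at 4.47 FPKM. Much of that gap is the length term, with exonic lengths of 488 bases for Lsm7 and 2119 bases for Lsm6. In counts per library Lsm7 had 177 to 352 and Lsm6 97 to 180.

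Promoter windows of 300 bases (250 before to 50 after the start) were at hand from RefSeq, build GRCr8, for 31 of the 35 symbols. They are shown for the 3 members with the smallest unadjusted p and for Sf3a2, a neighbour of Lsm7 on chromosome 7 with a log2 fold change near 0. They lie at chr5:143658306-143658605 on the plus strand (Lsm10), chr19:46002342-46002641, plus (Lsm6), chr7:9507123-9507422, plus (Lsm7) and chr7:9566156-9566455, minus (Sf3a2), and are printed 5′ to 3′ along the gene. Capitals mark matches on either strand to the NRF1 motif of 10 letters, in which the fifth is free, or to AAGATGGC (YY1), TGACGTCA (cyclic AMP response element, CRE) or TGATGCAAT (a target sequence of ATF4). The letters CCGGAAG were searched in the same way as the core that factors of the ETS family bind. For the promoter element that positions the start of transcription in a share of genes, the TATA box, the letters were TATAAA.
Lsm10: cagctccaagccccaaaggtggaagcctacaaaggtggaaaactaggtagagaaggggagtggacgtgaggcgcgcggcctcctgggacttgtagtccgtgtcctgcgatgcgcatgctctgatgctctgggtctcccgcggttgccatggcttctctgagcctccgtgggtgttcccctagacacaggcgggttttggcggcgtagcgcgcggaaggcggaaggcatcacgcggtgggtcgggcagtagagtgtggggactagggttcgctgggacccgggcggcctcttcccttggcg
Lsm6: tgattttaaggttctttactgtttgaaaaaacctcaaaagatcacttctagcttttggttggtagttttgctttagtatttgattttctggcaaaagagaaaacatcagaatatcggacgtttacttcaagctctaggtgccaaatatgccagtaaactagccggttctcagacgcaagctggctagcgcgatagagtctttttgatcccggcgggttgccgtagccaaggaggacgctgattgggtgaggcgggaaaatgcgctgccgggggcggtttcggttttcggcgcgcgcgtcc
Lsm7: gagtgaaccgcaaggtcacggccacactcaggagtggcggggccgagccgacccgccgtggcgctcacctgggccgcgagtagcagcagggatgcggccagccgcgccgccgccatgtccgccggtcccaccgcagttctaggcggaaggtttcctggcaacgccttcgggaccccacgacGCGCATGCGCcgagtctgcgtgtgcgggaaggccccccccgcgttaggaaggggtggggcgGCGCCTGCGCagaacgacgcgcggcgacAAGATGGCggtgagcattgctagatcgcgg
Sf3a2: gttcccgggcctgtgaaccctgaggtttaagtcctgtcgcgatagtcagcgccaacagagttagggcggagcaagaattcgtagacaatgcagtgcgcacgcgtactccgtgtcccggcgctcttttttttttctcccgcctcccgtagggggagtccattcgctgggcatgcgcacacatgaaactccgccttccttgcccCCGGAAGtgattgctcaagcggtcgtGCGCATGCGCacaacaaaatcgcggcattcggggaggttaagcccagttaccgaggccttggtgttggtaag
Lsm10 and Lsm6 held none of these letters, and Lsm7 and Sf3a2 both held the NRF1 letters. Over the set, the ETS letters were in 11 of 31 windows (35.5%), against 9.22% of 27457 RefSeq windows and 15.9% of 10924 windows of genes tested here. For NRF1 the shares were 5 of 31 (16.1%), against 4.71% and 9.22%, and for the TATA box 1 of 31 (3.23%), against 14.3% and 7.01%. YY1 and CRE letters were in 2 of 31 windows each (6.45%), against 3.44% and 1.91% of all windows and 5.14% and 3.04% of windows of genes tested, and the ATF4 letters in 0 of 31, against 0.193% and 0.146%. Windows were matched by symbol, so those of Snrpe and Snrpg belong to the coding RefSeq genes and not to the intronless rows counted here. Both held the ETS letters, and the Snrpg window also held the TATA box and CRE letters. A match describes the letters and not a bound site.

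Other parts of the splicing machinery were taken as lists by name, and 0 genes of any list passed the adjusted p. Of the U5 and tri-snRNP proteins 11 of 16 were positive (median log2 fold change 0.097), of other U1, U2 and branch site factors 12 of 19 (0.042), of the Prp19 complex and catalytic step factors 18 of 23 (0.10), of minor spliceosome proteins 9 of 10 (0.22) and of SMN complex and assembly factors, which load Sm proteins onto RNA, 15 of 17 (0.14). SR proteins had 8 of 13 positive (0.028), hnRNP proteins 16 of 22 (0.046), decapping partners of LSm1 to LSm7 4 of 10 (-0.021) and U7 processing partners 5 of 8 (0.11). The minor spliceosome genes, with a median exonic length of 1256 bases, were the shortest of these lists. Their median was 0.12 with the length trend removed. By the same fit the medians of 2 lists changed sign. SR proteins had 6 of 13 positive (-0.032), and decapping partners 6 of 10 (0.014). The medians of the other lists stayed positive.

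Genes with the smallest unadjusted p of each list are given as its examples. Snrnp25, a protein of the minor U11/U12 particle, stood at 14.2, 13.2 and 19.2 FPKM in LINC00894, against 10.4, 9.54 and 9.69 FPKM in vector, without overlap (0.58, SE 0.23, unadjusted p = 0.0304, adjusted p = 0.981 by edgeR). Hnrnpll, an RNA-binding regulator of exon choice, stood at 50.1, 47.7 and 57.4 FPKM in LINC00894, against 60.0, 59.4 and 74.8 FPKM in vector, also without overlap but lower (-0.39, SE 0.16, adjusted p = 0.981 by edgeR). Zfp473, which takes part in histone pre-mRNA processing, averaged 0.573 ± 0.275 FPKM in LINC00894 and 0.267 ± 0.0551 FPKM in vector (1.05, SE 0.48), at levels too low for a firm comparison. Ctnnbl1 of the Prp19-associated proteins (0.34, SE 0.17), Prpf31 of the U4/U6 particle (0.25, SE 0.18), Ddx46, a helicase at the branch site (0.21, SE 0.17), Strap of the SMN complex (0.20, SE 0.14), Srsf2 (0.18, SE 0.14) and Edc4, a decapping scaffold (-0.17, SE 0.15), were within 2 SE of 0.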

How the data were processed

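Per the labels' protocols, TRIzol-extracted brain RNA was bound to oligo(dT) beads, and cDNA made with random primers was read from both ends. HISAT2 2.0.1 and DESeq2 appear in the submitters' processing notes, with no role stated. No source at hand names the counting tool, annotation, genome build or use of strand, so reads of overlapping or antisense genes may be mixed. The authors deposited 1 table of 32623 genes with raw counts and FPKM per library; the deposited FPKM equalled counts over exonic length and summed counts to within 0.00500. The genotype label set the groups; replicate numbers follow accession order only and pair nothing.

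Counts were filtered with filterByExpr (minimum count 10, total 15), scaled with TMM and tested with edgeR 4.0.16 (quasi-likelihood F-test, R 4.3.3), adjusted by Benjamini-Hochberg over all 15121 genes; the biological coefficient of variation was 0.238. SEs are the log2 fold change over the root of F. The length control was an offset per library, a loess curve (span 0.3) of log2 CPM deviation on log2 exonic length. Deviations per library used log2 CPM. Fits were tested on simulated data. Alternatives (15) were DESeq2 1.42.0, other scalings and filters, the length control, limma 3.58.1 on log2 FPKM (pseudocount 1 or 0.1), libraries with Y-linked counts above 1000, and each library left out. Figures used matplotlib 3.10.9.

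Members, gene lists and tests were chosen with earlier results of these data known. Members are given by library where they had the smallest unadjusted p or highest level of a role group, an unadjusted p under 0.05, or were Snrpn or Snrpb; the values by library of Sf3a2, Lsm11 and rows outside the set were added after their values were seen. Of 175 list symbols, 173 were matched. Protein sequences named in the design were not used here, and promoter windows were taken in their place, with the letters searched also chosen after the data were seen.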

Additional observations from a re-analysis of the deposited data

How the results depend on the processing

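No member passed the adjusted p under any of the 15 alternatives. Lsm10 was positive in 15 of 15 (0.73 to 0.96) with an unadjusted p under 0.05 in 14, the exception being the libraries with Y-linked counts; its adjusted p ran from 0.540 to 1.00. Over all genes DESeq2 called 11 and edgeR without a filter 8, and with 1 library left out 0 to 9 (9 without LINC00894 replicate 3, 2 without vector replicate 1); at an unadjusted p under 0.05 there were 975 without a filter, 1485 among libraries with Y-linked counts, where 1 LINC00894 library is set against 3 vector libraries and is assumed to vary as they do, and 394 to 1104 with 1 library left out, against 610. Members at that p numbered 1 by DESeq2, median-of-ratios scaling or the length control, beside 655, 617 and 592 of all 15121 genes. They numbered 1 without a filter, beside 975 of 22810 genes, and 1 at a minimum count of 50, beside 490 of 12482. With library size scaling they numbered 4, beside 637 of 15121 genes. Either limma setting also gave 4, beside 714 (pseudocount 1) and 710 (pseudocount 0.1) of 15892 genes. With 1 library left out they numbered 1 to 2. Medians moved by more than the spread between libraries for the Sm core (0.12 at a minimum count of 50, 0.44 with Y-linked counts, 0.070 to 0.31 with 1 library left out), LSm1 to LSm8 (0.63 with Y-linked counts) and SF3A (0.13 with library size scaling, the length control or limma with pseudocount 0.1; -0.023 to 0.093 with 1 library left out). The sign turned in at least 1 alternative for 15 of the 33 tested members, among them 4 of those given by library under the naming rule: Lsm14b (-0.070 with the length control, -0.10 to 0.14 with 1 library left out), Sf3b1 (0.029 with library size scaling, 0.036 with the length control, 0.040 and 0.041 by limma, -0.14 to 0.099 with 1 library left out), Snrpa1 (-0.0085 with the length control, -0.038 to 0.23 with 1 library left out) and Snrpb (-0.017 with the length control, -0.088 to 0.15 with 1 library left out). The other 11 were Lsm2, Lsm5, Lsm8, Lsm12, Sf3a1, Sf3a2, Sf3b3, Sf3b4, Sf3b6, Snrpa and Snrpf. None was called, and the cause was not tested. The median of the other LSm proteins was -0.031 to 0.14 with 1 library left out. Library size scaling without TMM moved the median of all genes to 0.080, with 62.6% positive against 51.8% (61.8% and 61.7% by limma on deposited FPKM), and the set's median to 0.21. No paired analysis was possible because the labels give the groups no shared replicate numbers. At 45 to 62 counts in the vector libraries, depth limits the precision for Lsm10.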

Other observations

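The ratio of Lsm1, of the cytoplasmic decay ring, to Lsm8, of the nuclear U6 ring, on the FPKM scale was 0.414, 0.280 and 0.242 in LINC00894 replicates 1, 2 and 3, against 0.228, 0.256 and 0.449 in vector. Both extremes were in vector. The ratio of the P-body proteins Lsm14a to Lsm14b was 0.980, 0.632 and 0.710 in LINC00894, against 0.627, 0.651 and 0.737 in vector, with LINC00894 replicate 1 above the other libraries. These ratios were computed after the values were seen, and no test was run on them.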
